A study of Homo sapiens with 3 samples.

Results

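ARID1B-bound regions that lay inside genes of long non-coding RNAs (lncRNAs), and far from any protein-coding gene, are described here. Overlapping peaks of the replicates (by at least 1 bp) were merged into a union set of 2289 regions on chromosomes 1 to 22 and X. Of these, 285 (12.5%) met the rule: more than 10000 bp from either end of every protein-coding gene, outside every protein-coding gene body, and overlapping at least 1 gene annotated as lncRNA. The data are chromatin immunoprecipitation followed by sequencing (ChIP-seq) for ARID1B in HEK293FRT cells, a line derived from human embryonic kidney cells, with 2 ChIP replicates and 1 input, which was not analysed here. The labels list genotype and treatment as none, and they do not say whether the replicates were separate cultures, so the spread between them may be technical. The replicate lists held 1792 and 1820 peaks, each with a whole-number score from the authors whose scale is not given in the sources used here. Read depth is unknown, because the lists hold no counts. Positions are on hg38.

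ARID1B is a DNA-binding subunit of BAF (SWI/SNF), an ATP-driven complex that slides and ejects nucleosomes and is found at enhancers as well as promoters. Enhancers are stretches of DNA that raise transcription of a gene from a distance. LncRNAs are transcripts with little or no protein-coding capacity. Many of their genes lie in the wide stretches around developmental regulator genes, and their bodies often contain enhancers of those neighbours. A ChIP-seq peak inside a lncRNA gene marks a position on the DNA. It does not show that the RNA was made in these cells, and no RNA was measured here.

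Some of these regions lay on an annotated start of a lncRNA gene, and there the sequence under the peak can be shown. A start here is any that the annotation places within the gene, not only its first base. The RefSeq windows of 300 bases (250 before a start and 50 from it, GRCh38.p14) overlapped 17 windows of lncRNA genes with a region, of which 10 belonged to regions found in both replicates. The 4 shown belong to the highest-scoring of these whose region covered at least 150 bases of the window. They are written 5′ to 3′ on the strand of the gene. Capitals mark matches on either strand to 6 motifs, whose letters are given after the sequences.
LOC107986092: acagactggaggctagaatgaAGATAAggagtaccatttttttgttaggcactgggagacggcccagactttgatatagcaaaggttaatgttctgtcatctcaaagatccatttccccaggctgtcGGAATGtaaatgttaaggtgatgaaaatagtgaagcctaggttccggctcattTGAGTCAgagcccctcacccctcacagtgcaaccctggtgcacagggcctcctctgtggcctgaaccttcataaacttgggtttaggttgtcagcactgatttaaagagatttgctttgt
LOC105370998: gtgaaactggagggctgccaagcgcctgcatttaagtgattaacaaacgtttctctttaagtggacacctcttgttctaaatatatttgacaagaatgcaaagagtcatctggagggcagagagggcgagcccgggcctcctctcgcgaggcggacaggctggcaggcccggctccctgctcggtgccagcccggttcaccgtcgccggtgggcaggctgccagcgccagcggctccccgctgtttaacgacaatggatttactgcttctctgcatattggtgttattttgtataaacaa
LINC03004: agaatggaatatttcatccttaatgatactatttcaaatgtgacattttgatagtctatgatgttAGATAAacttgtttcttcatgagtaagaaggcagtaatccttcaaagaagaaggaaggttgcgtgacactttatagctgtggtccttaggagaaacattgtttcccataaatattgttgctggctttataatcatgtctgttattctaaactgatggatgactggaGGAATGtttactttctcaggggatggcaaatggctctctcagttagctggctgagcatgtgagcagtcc
LOC101929154: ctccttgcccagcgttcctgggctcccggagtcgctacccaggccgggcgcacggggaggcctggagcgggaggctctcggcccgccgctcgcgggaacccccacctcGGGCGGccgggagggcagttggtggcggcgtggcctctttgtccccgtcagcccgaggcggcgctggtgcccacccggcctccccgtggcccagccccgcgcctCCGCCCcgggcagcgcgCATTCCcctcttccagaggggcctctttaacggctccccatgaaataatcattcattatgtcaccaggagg

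The window of LOC107986092 is at chr3:58471123-58471422 on the plus strand, and its region (chr3:58471200-58471763, scores of 369 in replicate 1 and 342 in replicate 2) covered 223 of its bases. The window of LOC105370998, at chr15:96053327-96053626 on the minus strand, and that of LINC03004, at chr6:137665396-137665695 on the plus strand, lay wholly inside their regions. The window of LOC101929154, at chr5:77957997-77958296 on the plus strand, was covered over 161 bases. Their GC contents were 46.0%, 54.7%, 37.7% and 72.3%, against a median of 50% over 12836 windows of lncRNA genes. The starts of LOC107986092 (gene at chr3:58433595-58484758) and LOC101929154 (gene at chr5:77884656-77959096) lay inside the gene, not at its first base. Those of LOC105370998 and LINC03004 were the first base of the gene.

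The motifs searched were TGANTCA (AP-1, the JUN and FOS factors), GGAATG (TEAD, the partners of YAP), AGGTCA (nuclear receptors such as NR2F2), GGGCGG (the GC box of SP factors), AGATAA, a motif of the GATA family, and CAGCTG, an E-box of bHLH factors. LOC107986092 held TGAGTCA 70 bases before the start and GGAATG 123 bases before it, both inside the region, and an AGATAA outside the region. LINC03004 held GGAATG 19 bases and AGATAA 185 bases before the start, both inside the region. LOC101929154 held CATTCC, the reverse complement of GGAATG, 21 bases before the start, and GC boxes 38 and 142 bases before it, the latter outside the region. LOC105370998 held no match to the 6 motifs. No matches overlapped each other in these 4 windows. Over all 35116 windows of the table, 14.03% held the TEAD motif and 7.71% the AP-1 motif, and over those of lncRNA genes 17.1% and 10.3%. AGGTCA was held by 13.8% of all windows and 17.1% of those of lncRNA genes, and GGGCGG by 45.0% and 25.6%. For AGATAA the shares were 10.3% and 14.5%, and for CAGCTG 17.9% and 17.8%. Of the 17 windows reached by a region, 6 held the TEAD motif, 6 the AP-1 motif, 5 the E-box, 4 the nuclear receptor motif, 3 the GC box and 3 the GATA motif. These counts include matches outside the region and a window covered over only 9 bases (LOC105378075). The AP-1 windows of LINC01767, TGILR, LNC-LBCS and LOC124901783 belonged to regions called in replicate 2 alone. In LINC01132 the AP-1 and GATA matches lay outside the region. Nothing is read from the counts against the shares over all windows. A match is a description of the letters, not a binding site.

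The 2 highest regions stood apart from the rest. In the body of LINC01605, a lncRNA gene on chromosome 8, the region at chr8:37479255-37479896 scored 707 in replicate 1 and 763 in replicate 2. In the body of MIR3681HG, annotated as a microRNA host gene, the region at chr2:12303192-12303788 scored 523 and 631. That second region lay 413 kb from TRIB2, a pseudokinase gene, and 296 kb from the nearest annotated start of its host. The next, on the start of LOC107986092, was 20.3 kb from KCTD6, the gene of a ubiquitin ligase adaptor. Scores over all 230 regions with a replicate 1 peak ranged from 10 to 707, with a median of 69.5, and over the 226 with a replicate 2 peak from 11 to 763, with a median of 78. The lists as a whole had medians of 74 and 75.

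The distance to the nearest protein-coding gene varied widely among the next regions. At chr8:37637785-37638418, inside LOC105379380 and LOC124901931 and 57.4 kb from ZNF703, a zinc-finger corepressor gene, the scores were 300 and 376. At chr5:125484722-125485623, inside LOC124901056 and 736 kb from the zinc-finger gene ZNF608, they were 301 and 285. The region on the start of LOC105370998, which also lay inside LOC112268156, had scores of 243 and 478 and was 272 kb from NR2F2, the gene of an orphan nuclear receptor of vessel and organ development. The region on the start of LINC03004 had 270 and 229 and was 171 kb from OLIG3, a bHLH factor gene of the neural tube. Inside CASC17, 957 kb from SOX9, the regulator of cartilage and testis development, a region at chr17:71163446-71163979 had 172 and 193.

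Other regions among the first 25 had nearest genes of varied function, again at widely varying distances. MIR181A1HG, the host gene of microRNAs that tune lymphocyte signalling, held a region 1.5 kb from an annotated start (chr1:198935547-198935924, scores of 237 and 285) and another 99.2 kb from it (chr1:198837487-198838218, 303 and 251). PTPRC, which encodes the leukocyte phosphatase CD45, was the nearest protein-coding gene to both. LINC01358 held one at chr1:59077997-59078425 (295 and 368), LOC107986098 one at chr3:73298372-73299121 (294 and 419), 83.3 kb from PDZRN3, a ubiquitin ligase gene, and another 74.6 kb from PPP4R2 (180 and 177). Regions in LOC101927623 (277 and 333, nearest gene GOLM1, a Golgi protein gene), LINC01586 (247 and 275, nearest gene AEN, an exonuclease gene) and LINC01762 (289 and 251, nearest gene CD58, a cell adhesion gene) were 41.6, 17.6 and 37.8 kb from those genes. Those in LOC112268416 (283 and 242), LOC107985962 (208 and 306) and LOC105374511 (311 and 204) were 22.2 kb from the matrix gene EFEMP1, 116 kb from LNPK and 428 kb from SLIT2, an axon guidance gene. The rest of the 25 were in LOC100507403 (237 and 304), LOC124901930 (205 and 195), LINC01122 (245 and 205), CMKLR2-AS (203 and 188), LOC124901056 (172 and 205, 700 kb from GRAMD2B) and LOC101929154 (170 and 339, 42.0 kb from AP3B1). In 22 of these 25 pairs the higher score was less than 1.5 times the lower. The 25 were ranked by the lower of their percentiles in the replicates, which leaves out regions high in 1 replicate and low in the other, so the choice itself favours pairs that are alike.

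**Figure D1:**
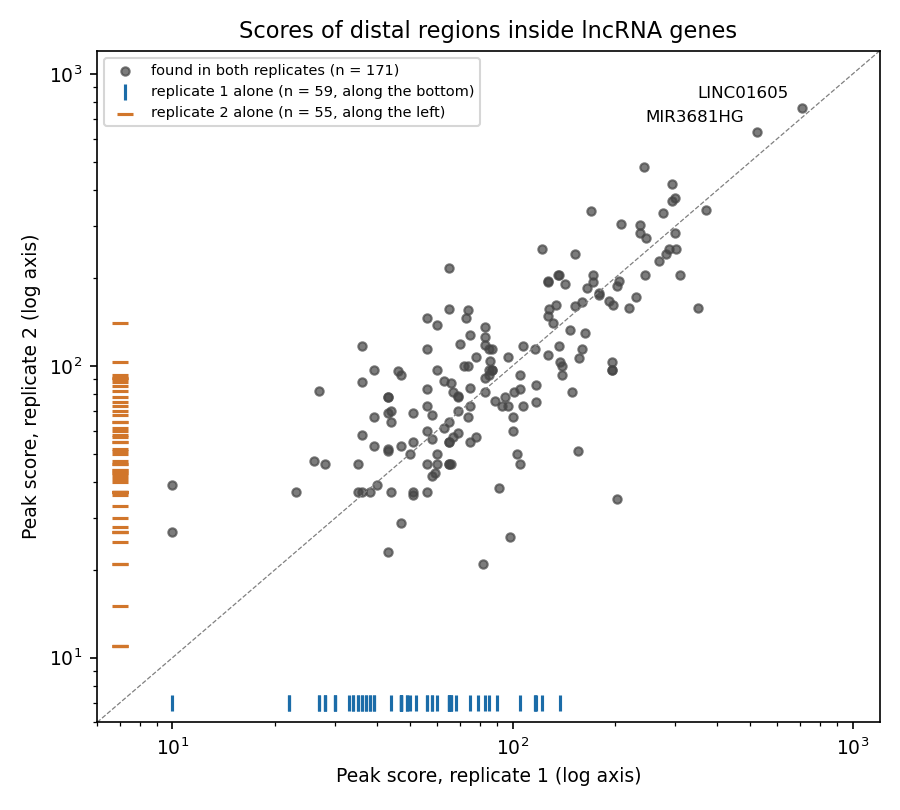
Peak score in replicate 1 (horizontal, log axis) against replicate 2 (vertical, log axis) for the distal regions inside lncRNA genes; each point is a region found in both replicates (n = 171), ticks along the bottom and left are regions of 1 replicate alone (59 and 55), and the dashed line marks equal scores. The regions of LINC01605 (707 and 763) and MIR3681HG (523 and 631) lie above all others on both axes, and no region of 1 replicate alone scored above 140.

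Of the 285 regions, 171 (60%, exact Clopper-Pearson 95% interval 54.1 to 65.7) were found in both replicates, against 57.3% of all 2289 regions. The share was 57.1% (53.7 to 60.5) for 846 distal regions inside protein-coding genes and 59.5% (55.1 to 63.7) for 528 distal regions outside all genes. The intervals, which cover counting error only, overlap, and no test of the differences was made because regions are not replicates of a condition. Among the regions in lncRNA genes, 59 were called in replicate 1 alone and 55 in replicate 2 alone.

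Regions of high score were found in both replicates more often than those of low score. Of 62 regions above percentile 75 of the replicate 1 list 60 were found in both replicates (96.8%), and of the 61 lowest, by the matching cut at the other end, 30 (49.2%). For the replicate 2 list these were 56 of 57 (98.2%) and 28 of 58 (48.3%). The same shares over all regions were not computed, so this is not read as particular to regions in lncRNA genes. Above percentile 75 lay 27.0% of the members by replicate 1 and 25.2% by replicate 2, where all regions gave 25.2% by either list. Across the 171 regions found in both, the scores of the replicates had a Spearman rho of 0.737, and across the 1140 other regions found in both 0.707. These are descriptions across regions, which share the same libraries. Replicate 2 scored higher in 92, replicate 1 in 78, and 1 pair was equal. The ratio of replicate 2 to replicate 1 had a median of 1.07 and lay within 2-fold in either direction in 147 of 171.

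The scores of the replicates were far apart in a few regions. The widest gap was on the start of LOC105373910 (chr2:224678292-224678656), with 203 in replicate 1 and 35 in replicate 2. The next were in LOC124902533 (82 and 21), LINC01411 (10 and 39) and LINC03108 (98 and 26), followed by LOC124903006 (chr12:105562302-105562802, 65 and 217) and CDKN2B-AS1 (chr9:22124684-22125050, 36 and 117). These 6, the widest of the 171 by fold, were chosen after their values were seen.

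**Figure D2:**
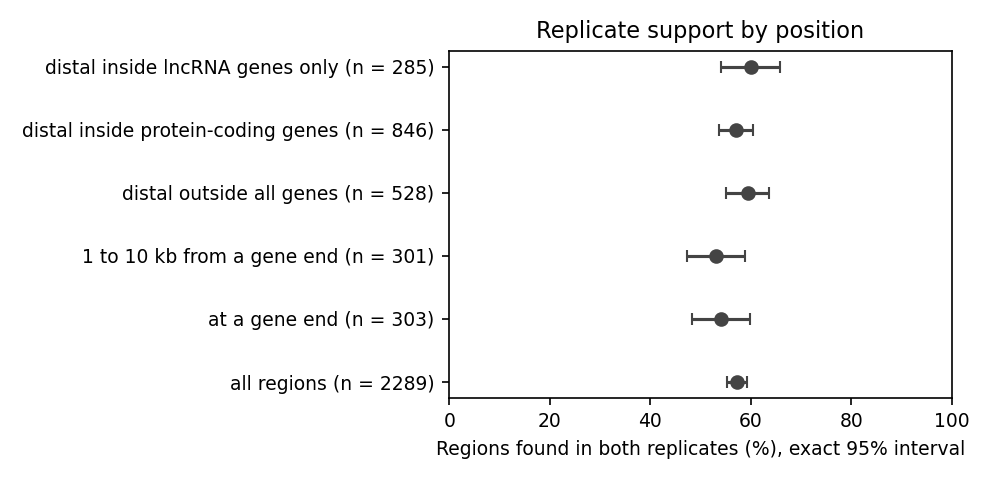
Share of regions found in both replicates (horizontal, percent) by position relative to protein-coding genes (vertical), with exact 95% intervals as bars. The 285 distal regions inside lncRNA genes (60%) and the 528 outside all genes (59.5%) have overlapping intervals, and all regions together have 57.3%.

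Regions called in 1 replicate alone had low scores. In replicate 1 alone the median was 47 and the highest were in TMEM26-AS1 (138), LOC101928911 (122), NR2F1-AS1 (117), LOC102724008 (116) and LOC107984041 (116). In replicate 2 alone the median was 46 and the highest were in LOC105370276 (140), LINC01605 (103), LOC124901075 (93), LINC01622 (91) and LOC107986098 (91). The nearer edge of the LOC105370276 region was 133 bp before an annotated start that lies inside the gene (chr13:80356355-80366052), not at its first base. The region was 18.7 kb from SPRY2, an inhibitor of receptor tyrosine kinase signalling. In the regions found in both replicates the medians were 85 and 93.

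The 285 regions lay in 241 lncRNA genes, 1.35% of the 17904 annotated on these chromosomes. Of these hosts, 196 held 1 region, 29 held 2 and 16 held 3 or more, and 26 regions lay in more than 1 lncRNA gene. The hosts had a median length of 60.8 kb, against 9.13 kb over all lncRNA genes, and a long gene has more sequence in which a region can fall. Uncharacterised genes with LOC symbols made up 140 of the 241 hosts (58.1%, against 67.3% of all lncRNA genes), LINC genes 53 (21.99% against 12.9%) and genes named after a neighbour 28 (11.6% against 15.3%). The 1.35%, the 9.13 kb and these shares count every lncRNA gene, including any with no sequence that meets the position rule. That rule leaves out sequence in and near protein-coding genes, so it can itself shift these values. The differences are therefore not read as a preference for a kind of lncRNA gene. Of the regions, 151 (53.0%) lay in LOC genes alone.

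LINC01605 (chr8:37403516-37599839, 196 kb) held 5 regions, 4 of them found in both replicates. Beside its leading region these had scores of 78 and 107, 105 and 46, and 74 and 155, and the fifth was called in replicate 2 alone with 103. LOC124901056 (chr5:125479095-126370298, 891 kb) also held 5, all found in both replicates, with scores from 43 to 301 in replicate 1 and from 78 to 285 in replicate 2. Its neighbour LOC101927421 (chr5:125036831-125367734) held 5, of which 3 were found in both, with scores of 160 and 114, 136 and 204, and 196 and 103. LINC01122 (chr2:58520753-59063766, 543 kb) held 5, again with 3 found in both, and the highest had 245 and 205. The nearest protein-coding gene there was FANCL, a Fanconi anaemia ubiquitin ligase gene, 393 to 665 kb away.

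CASC15 (chr6:21666413-22195820), a lncRNA gene of the neuroblastoma susceptibility locus, held 4 regions, each found in both replicates, with scores of 149 and 81, 192 and 167, 58 and 56, and 122 and 251. A set of 11 genes held 3 regions each. All 3 were found in both replicates in MIR3681HG, LINC01411 and LOC107986623. In MIR3681HG the regions lay within 15.8 kb, with scores of 523 and 631, 160 and 165, and 156 and 51. LINC01411 and LOC107986623 had lower scores, up to 107 and 73 and up to 128 and 157. In CASC17, JUN-DT, LINC01170, LOC107986098, MIR4435-2HG and MSRB3-AS1 2 of 3 were found in both replicates, and in LINC02934 and LOC101928933 1 of 3. The highest scores in JUN-DT, the gene that starts divergently from JUN, were 153 and 241 at chr1:58885280-58885679, 101 kb from JUN. LINC02934 had 165 and 185 at chr2:66080154-66080528, 355 kb from MEIS1, a homeobox gene of limb and blood development.

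**Figure D3:**
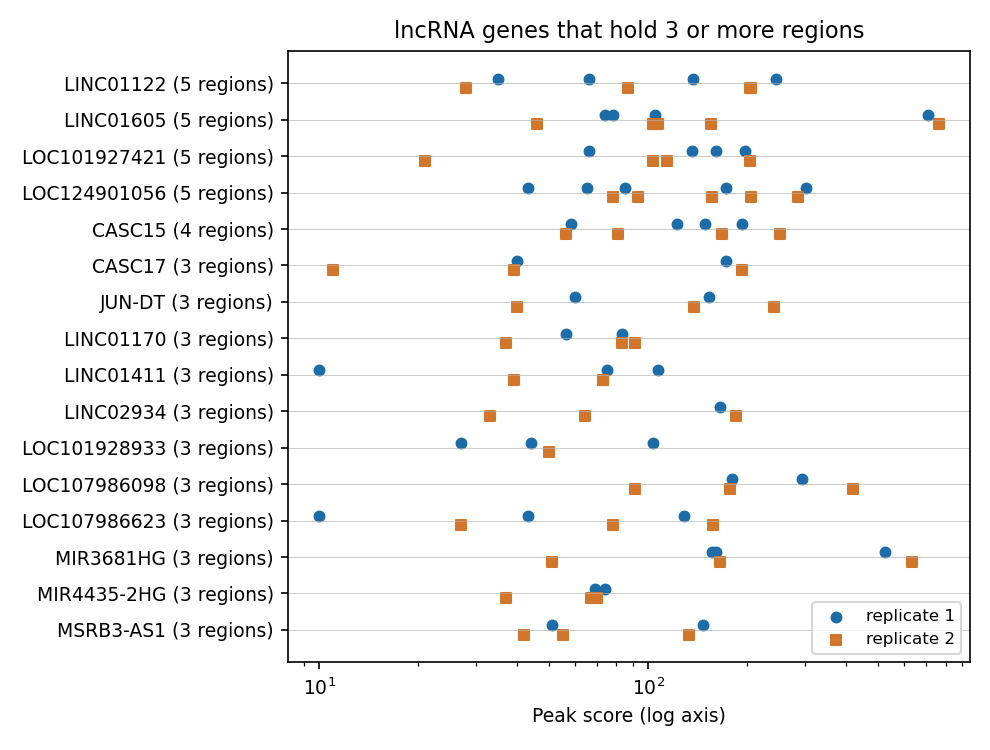
Peak scores (horizontal, log axis) of every region in the 16 lncRNA genes that hold 3 or more regions (vertical), with replicate 1 as circles and replicate 2 as squares. LINC01605 and MIR3681HG each hold 1 region far above their others. Every region was called in both replicates in CASC15, LOC124901056, MIR3681HG, LINC01411 and LOC107986623.

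Joined where they were at most 100 kb apart, the 285 regions formed 219 sites. Of the regions 171 stood alone and 114 fell into 48 groups, 13 of which had 3 or more. The groups with most members were 5 regions in LOC101927421 (chr5:125176037-125326550) and 5 across LOC100507403, LOC124901930 and LINC01605 (chr8:37329483-37479896), all 5 of the latter found in both replicates.

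A list of 85 widely studied lncRNAs, written from general knowledge with earlier results of these data known, had 77 annotated members. Of these 9 (11.7%) held 17 of the regions, where 1.35% of all lncRNA genes held any. Since the list was written with results known, nothing is read from the difference. LINC01605 and CASC15 are described above. SOX2-OT (chr3:181056680-181742228), the long transcript that spans SOX2, held a region at chr3:181328951-181329460 with scores of 350 and 158, 154 kb from the nearest annotated start. DLEU1, a transcript of a region often deleted in leukaemia, had 87 and 114 at chr13:50222800-50223363, where the start of LOC124900337 also lies. NR2F2-AS1 had 101 and 81 at chr15:96170985-96171283. CDKN2B-AS1, the antisense transcript of the CDKN2A and CDKN2B cell-cycle inhibitor locus, had the 36 and 117 given above. NEAT1, the scaffold RNA of nuclear paraspeckles, was reached in replicate 2 alone (37), as was LINC00673 at 2 places (57 and 90), and NR2F1-AS1 was reached in replicate 1 alone (117). Gene length was not corrected for.

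The next question was which protein-coding genes these regions lay nearest to. They had 206 nearest genes, of which 158 were nearest to 1 region and 15 to 3 or more. ZNF608 was nearest to 10 (7 found in both replicates), 362 to 736 kb away, of 27 regions of any position that had it as nearest gene. ZNF703 was nearest to 8 (7 in both) of 14, and NR2F2 to 4 (4 in both) of 10. The 4 at NR2F2 had scores of 243 and 478, 101 and 81, 83 and 81, and 117 and 86. They lay on both sides of the gene, which is at chr15:96326046-96340263, the first pair upstream in coordinate and the last pair at chr15:96692923-96693181 and chr15:96693963-96694455 inside LOC105371002.

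Of the other genes nearest to 3 or more, ETS2, JUN, MEIS1 and SOX9 encode transcription factors. The 3 at ETS2 had low scores (at most 67 and 57). Those at SOX9 lay 940 to 957 kb from it. FANCL was nearest to 5, and the predicted gene LOC124901483 to the 4 of CASC15. TRIB2, GRAMD2B, MAP3K7 (a kinase of TGF-beta and innate immune signalling), ENC1, MSRB3 and the predicted gene LOC124907867 were each nearest to 3. The nearest gene is a statement of position, and which gene a region acts on was not measured.

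Transcription factor genes were the nearest protein-coding gene of some of these regions, which says nothing of how close they were. Of a list of 660 transcription factor and zinc-finger regulator genes, written with earlier results of these data known, 33 were the nearest gene of 66 regions (23.2%, exact 95% interval 18.4 to 28.5). The share was 13.9% over all regions, 9.93% (7.997 to 12.1) for distal regions inside protein-coding genes and 18.0% (14.8 to 21.5) for those outside all genes. The sequence itself differs in this respect: of the 328 Mb that meets the position rule, 8.65% has a listed gene as nearest, against 4.07% of the distal sequence inside protein-coding genes and 6.31% of that outside genes. ZNF608 and ZNF703 account for 18 of the 66. They were known from earlier results when the list was written, and without their regions the share was 18.0% (48 of 267), where the sequence gives 8.37%. Counted once each, 33 of 206 nearest genes (16.02%) were on the list, against 3.33% of all protein-coding genes. That base takes no account of how much sequence meeting the rule lies nearest to each gene. Nothing is read from the differences in these shares. Of the 66 regions 41 (62.1%, 49.3 to 73.8) were found in both replicates.

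The other listed genes were each nearest to 1 or 2 regions. KLF12 had 2 found in both replicates, the higher with 197 and 161, and FOXA2, a pioneer factor of endoderm, had 2 (39 and 97, 63 and 61). NR2F1, the paralogue of NR2F2, had a region in LOC105379082 with 152 and 160, 941 kb away, besides the one in NR2F1-AS1. SIX2, a factor of kidney progenitors, had 1 region with 83 and 118, GATA6 1 with 100 and 67, BCL11B 1 with 100 and 60, and OTX2 1 with 65 and 46. ETV3, TBX19, MAF and ZFHX4 each had 1 region found in both replicates, with scores of at most 87 and 97. NFE2L3, RUNX1, ZEB2, SOX6, ID4, SALL4, FOXQ1, FOXD3, FOXN2, HLX, ARID5B and SMAD4 had only regions called in 1 replicate alone, and MSX2 and NFIB had 1 of 2 in both.

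**Figure D4:**
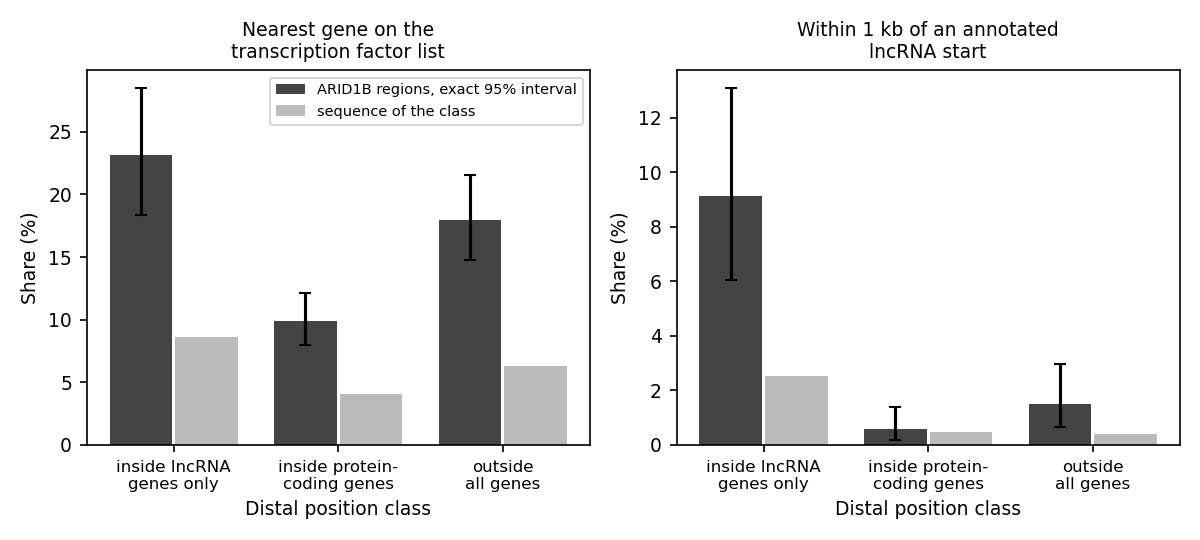
Share of ARID1B regions (dark bars, exact 95% intervals) and of the underlying sequence (light bars) in 3 distal position classes, for a nearest gene on the transcription factor list (left, percent) and for a position within 1 kb of an annotated lncRNA start (right, percent). Regions in lncRNA genes have a listed nearest gene in 23.2% of cases against 8.65% of the sequence, and lie at a lncRNA start in 9.12% against 2.53%. The list was written with earlier results of these data known, so nothing is read from the left panel. For regions in lncRNA genes, the sequence counted lies inside such genes, while a region need only overlap one. Starts on chromosome 8 were not analysed, but its regions and sequence stayed in the totals.

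Few of the regions lay at a lncRNA start, but more than the amount of such sequence. Within 1000 bp of an annotated lncRNA start lay 26 of 285 regions (9.12%, exact 95% interval 6.05 to 13.1), against 4.54% of all regions and 2.53% of the sequence that meets the rule, counted with 153 bp added to the window for the width of a region. The sequence counted lies inside lncRNA genes, while a region need only overlap one. Regions centred outside every lncRNA gene, such as that of LINC03004, therefore have no match in that sequence, which raises the share of regions against it. In the distal classes inside protein-coding genes and outside genes the regions gave 0.591% and 1.52%, and the sequence 0.478% and 0.409%. Of the 26, 24 were at a start of a gene that hosts them, and 13 of these 24 were found in both replicates (54.2%, 32.8 to 74.4). On the start itself lay 15. Beside the 4 shown above, those found in both replicates included the starts of LOC124902927 (127 and 195, 15.6 kb from COL2A1), LOC124902651 inside BBOX1-AS1 (93 and 73), LINC01132 (67 and 81) and LOC124903403 (100 and 60, 371 kb from BCL11B). A region at LOC105378075, whose nearest protein-coding gene is ARID1B itself, was called in replicate 2 alone with a score of 25. Starts on chromosome 8 were not analysed here, but its 18 regions and 20.5 Mb of sequence stayed in the totals behind these shares. Start positions were at hand for a host of 206 of the 285 regions, and the median distance to the nearest of them was 33.1 kb.

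These regions were spread through the distal sequence at 0.870 per Mb, close to the 0.883 per Mb of distal sequence inside protein-coding genes and above the 0.475 per Mb of that outside all genes. With regions found in both replicates the values were 0.522, 0.504 and 0.282 per Mb. Sequence outside genes includes centromeres and unfilled gaps, which were not removed. The median distance to the nearest protein-coding gene end was 127 kb (quartiles 45.0 and 272 kb), and the farthest region was 1018 kb away. The sequence that meets the rule has a median distance of 148 kb. Beyond 500 kb lay 6.67% of the regions (19) and 15.5% of the sequence, while beyond 100 kb the shares were 57.5% and 60.7%. The 3 regions nearest to the limit lay 10391, 10446 and 10569 bp from TOR1AIP1 (44 in replicate 1 alone), TRPC7 (93 in replicate 2 alone) and BLM (46 and 96). Just short of it, at 9208, 8956 and 8624 bp, were regions near MEOX1 (46 and 52), LEKR1 (462 and 445) and CFL2 (25 in replicate 1 alone). The lower score of the region near LEKR1, which lay in LINC00886, exceeded the lower score of all but 2 of the regions described here.

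**Figure D5:**
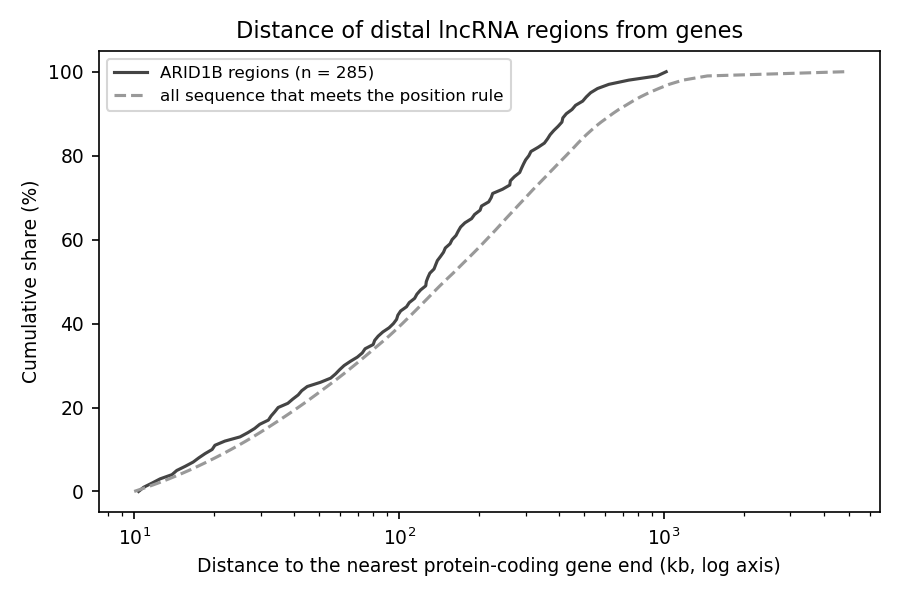
Cumulative share (vertical, percent) by distance to the nearest protein-coding gene end (horizontal, kb, log axis) for the 285 regions (solid) and for all sequence that meets the position rule (dashed). The median is 127 kb for regions and 148 kb for sequence, and 6.67% of regions but 15.5% of sequence lie beyond 500 kb.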

How the data were processed

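The members and lists were chosen with earlier results of these data known. The authors deposited 1 peak list per ARID1B ChIP replicate in HEK293FRT cells, with a start, an end and a score per peak. The submitters' processing notes name MACS2 2.1.2, Bowtie2 2.3.4.1, bcl2fastq 2.20.0.422 and the build hg38. For settings, the peak threshold, duplicate handling, the antibody and the use of the input, the entry is: not given in the sources used here. The deposited score was used for ranks within a list and for a description of how far the replicates differ.

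Starts were converted to count from 1. Genes came from a RefSeq table of GRCh38.p14, the assembly that hg38 names. Of its 59792 rows 58419 were kept, leaving out rows after the first ordered run of each chromosome and all sequences but chromosomes 1 to 22 and X, which took 2 regions out. Exons and introns were not separated. LncRNA starts and strands (12829 starts of 11383 genes) and sequences came from a RefSeq table of start windows. The distance to a gene end was measured from the region's nearer edge. Background sequence was read at every 10 bp of each chromosome's annotated span.

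No test was made, because there is 1 group of 2 replicates. Shares carry exact Clopper-Pearson 95% intervals, which cover counting error only. The regions and genes named were the 25 members found in both replicates with the highest lower percentile, hosts and nearest genes with 3 or more members, the 5 highest of each replicate alone, members in the list of widely studied lncRNAs, and 3 on each side of the distance limit. Any other gene was named with its values already known. The closing part gives the alternatives. The merging and position rules were tested on simulated peaks. Those simulated in both replicates had the same coordinates in each, so the merging of partly overlapping peaks was not tested. Python 3.11, pandas 2.3.3, scipy 1.17.1.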

Additional observations from a re-analysis of the deposited data

How the results depend on the processing

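Of 56 values recomputed under other settings, 43 stayed within the interval, the replicate spread or 1.5 times of the main value. For the distance, that spread came from the medians without 1 replicate, which are themselves among the 56. Some values could barely move, such as the median score of a replicate with the other left out. The 43 is therefore a tally and not a measure of robustness. Leaving out lncRNA genes with LOC symbols left 134 regions in 101 genes, with a median distance of 136 kb. Peaks at or above the median score of their list gave 145 regions in 133 genes, with median scores of 128 and 117. The median distance was 121 kb with a limit of 5000 bp, 140 kb with one of 20000 bp and 114 kb with neighbouring members counted once. Without 1 replicate it was 127 to 134 kb, the number of regions 226 to 228, the number of host genes 192 to 198 and the share nearest to a listed transcription factor gene 21.5% to 24.8%. That share was 18.0% without the regions at ZNF608 and ZNF703 and 16.02% with each nearest gene counted once, 2 alternatives chosen after seeing the data. The share found in both replicates lay between 55.2% and 61.6% under every alternative run. No paired analysis was possible because there is 1 ChIP group, and the input was not analysed. Without read counts, a region called in 1 replicate alone cannot be told apart from one just under the other's threshold.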

Other observations

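Chromosomes differed in how many of these regions they held relative to the sequence that meets the position rule. Chromosome X held 0 in 10.3 Mb, where the mean density of 0.870 per Mb gives 8.99, and a count of 0 allows up to 0.290 per Mb (3 counts, counting error only). Chromosome 19 held 0 in 2.75 Mb, where 2.40 were due, and there a count of 0 allows up to 1.09 per Mb, which is above the mean density. Chromosome 4 held 7 where 22.8 were due and chromosome 14 held 5 where 11.0 were due. The highest densities were on chromosomes 17 (1.42 per Mb, 7 where 4.28 were due), 6 (1.40 per Mb, 30 where 18.6 were due), 21 (1.39 per Mb, 8 where 5.01 were due), 5 (1.38 per Mb, 34 where 21.5 were due) and 1 (1.37 per Mb, 31 where 19.7 were due). Neighbouring regions share their surroundings, so these counts are given with no test. Counts of all ARID1B regions by chromosome were not made. Whether these differences are particular to regions in lncRNA genes is therefore not known.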
